A study of Mus musculus with 20 samples.

Results

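The genes described are 4 medium-chain acyl-CoA synthetases, Acsm1, Acsm2, Acsm3 and Acsm5, and 2 genes of the glycine N-acyltransferase family, Glyat and Keg1. They were taken as a list of names, 6 of the 19940 genes in the table, and all 6 passed the filter on low values in the fit across genes. They were chosen by their role with results of these data in view, and the measured values behind that choice were the lower normalized counts of Acsm2 and Acsm3 in old G3 Tert-/- kidneys. For that reason p-values of the 6 genes are given only for the comparison of genotypes at 7 weeks, which shares no library with the comparison at 47 weeks, and for pairs of the genes within groups. The fit across all genes also covers them at 47 weeks and with age, and its calls there are given as a description, with no p-value. Its estimate of the spread of each gene comes from the libraries of all groups. The old libraries therefore enter the p-values at 7 weeks through that spread.

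RNA from kidneys of male mice was sequenced in 20 libraries, with 5 in each of 4 groups. The groups were Tert+/+ young and G3 Tert-/- young at 7 weeks and Tert+/+ old and G3 Tert-/- old at 47 weeks. Tert supplies the catalytic subunit of telomerase, the enzyme that extends chromosome ends, and G3 marks generation 3 of breeding without it. The labels name no treatment beyond genotype and age, no litter and no batch, and nothing in them beyond separate sample entries says that each library came from its own animal, so the p-values measure the spread between these libraries. The labels give the material as kidney, and in such bulk RNA fewer cells of a type and less RNA per cell cannot be told apart. The title of the series is about short telomeres and kidney fibrosis, and the groups allow the genotypes to be compared at both ages and the ages in both genotypes.

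Medium-chain acyl-CoA synthetases sit in the mitochondrial matrix and join medium-chain fatty acids, benzoate and related carboxylic acids to coenzyme A. Glycine N-acyltransferase then moves the acyl group to glycine, which releases coenzyme A and yields acylglycines such as hippurate. The kidney, with the liver, is a main site of this conjugation, and hippurate is secreted into urine by organic anion transporters of the proximal tubule.

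Libraries held 7161690 to 9757594 reads, and 18628 to 19137 genes were above 0. Tert was 4.21 to 16.9 normalized counts in Tert+/+ and 0.979 to 8.31 in G3 Tert-/- libraries, and since a 3′ tag can lie outside a deleted part of a gene, these values check the genotype labels little. Proximal tubule markers were abundant in every library, with a summed level of the 17 listed genes between 218305 and 497598 normalized counts and 0 markers at 0 throughout a group. Kap, an androgen-responsive transcript of the proximal tubule, made up 48.9% to 71.9% of that sum, and the other 16 markers summed to 111266 to 147734. Tert+/+ young replicate 1 and Tert+/+ old replicate 4 stood apart, with departures from the median library of 0.606 and 0.482 log2 units (SD over abundant genes) against 0.177 to 0.386 in the others. Tert+/+ old replicate 4 also held 2284.9 normalized counts of 14 hepatocyte transcripts, against 243.2 to 725.7 in the other libraries. For some results that include these libraries, values without them are also given.

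The 4 synthetase genes lie on the plus strand of chromosome 7 (GRCm38, GENCODE annotation) within 268.1 kb. Acsm5 (ENSMUSG00000030972.6) spans 119519463 to 119545551, Acsm2 (ENSMUSG00000030945.17) 119554340 to 119600690, Acsm1 (ENSMUSG00000033533.14) 119607026 to 119662515 and Acsm3 (ENSMUSG00000030935.15) 119760923 to 119787513. Gaps of 8.8, 6.3 and 98.4 kb separate them in that order. Glyat (ENSMUSG00000063683.12, 12633308 to 12653911) and Keg1 (ENSMUSG00000024694.9, 12695786 to 12719902) lie on the plus strand of chromosome 19, 41.9 kb apart.

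RefSeq promoters (GRCm38.p6) were found for all 6 genes, in 7 windows of 250 bases before a start site, because Acsm2 has more than 1 start. The windows of Acsm1 (119617562 to 119617811), Acsm5 (119526015 to 119526264) and the later Acsm2 start (119561458 to 119561707) lie inside the gene spans given above. Those of Acsm2 (first start, chr7:119554090-119554339, plus strand) and Acsm3 (chr7:119760673-119760922, plus strand) are shown, 5′ to 3′, because these genes had the largest differences between old groups. Capitals mark a motif match.
Acsm2: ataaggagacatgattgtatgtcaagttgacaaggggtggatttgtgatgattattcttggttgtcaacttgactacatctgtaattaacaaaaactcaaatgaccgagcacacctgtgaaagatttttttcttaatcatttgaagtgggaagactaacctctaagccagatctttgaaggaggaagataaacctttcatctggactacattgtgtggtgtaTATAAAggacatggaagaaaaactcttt
Acsm3: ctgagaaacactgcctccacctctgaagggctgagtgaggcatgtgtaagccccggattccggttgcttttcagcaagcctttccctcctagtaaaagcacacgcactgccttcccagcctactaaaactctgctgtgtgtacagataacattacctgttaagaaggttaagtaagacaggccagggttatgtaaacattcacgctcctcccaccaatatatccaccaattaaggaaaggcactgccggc

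The Acsm2 window held the TATA box TATAAA on its plus strand at -28 to -23 from the start. A TATA box positions the start of transcription at some promoters. The motif was not in the other 6 windows, and both strands were searched. Over 32851 RefSeq windows of the same length, 12.37% held the TATA box. The short androgen response motif AGAACA, present in 16.08% of all windows, was in 0 of the 7. The same held for the HNF4 core CAAAGTCCA (0.38% of all windows), the DR1 repeat of nuclear receptors, AGGTCA on either side of 1 base (0.03%), and the full androgen response element, AGAACA and TGTTCT around 3 bases (0.01%). The full element contains the short androgen response motif. A match is a description of letters in the window, and a missing match says only that these letters are not there.

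Acsm3 and Acsm2 had the largest fold differences between the old groups. Acsm3, which activates medium-chain fatty acids, was 1935, 1417, 2486, 1959 and 1780.4 normalized counts in Tert+/+ young libraries and 2020.2, 1357, 1592, 1815 and 2417 in G3 Tert-/- young libraries. In Tert+/+ old libraries it was 932, 957, 686, 964 and 946, and in G3 Tert-/- old libraries 311, 294, 692, 406 and 452. Every old library lay below every young library of either genotype, and the old groups overlapped through a single G3 Tert-/- library at 692, just above the lowest Tert+/+ library at 686. The share of all tested genes with such a separation by age was not counted. Means were 1916 ± 386 and 1840.2 ± 406 at 7 weeks and 897 ± 118 and 431 ± 160.0 at 47 weeks (Tert+/+ first, SD, n = 5).

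Acsm2, whose product activates medium-chain fatty acids and benzoate, was 39440.3, 41335, 41589.8, 43981 and 40810.3 in Tert+/+ young libraries and 43359, 40149.9, 34979.6, 37221 and 40384 in G3 Tert-/- young libraries. At 47 weeks it was 40490.3, 31122, 31630.1, 35716 and 35333 in Tert+/+ and 24454, 22521, 24483, 21464 and 22603 in G3 Tert-/- libraries. All 5 G3 Tert-/- old libraries lay below all other 15, and the other 3 groups overlapped. How many of all tested genes separate in this way was not counted, and the separation holds values known when the genes were listed. Means were 41431 ± 1649.8, 39219 ± 3214, 34858 ± 3777 and 23105 ± 1323 in Tert+/+ young, G3 Tert-/- young, Tert+/+ old and G3 Tert-/- old kidneys.

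Acsm1, a further synthetase with benzoate and butyrate among its substrates, was 1240.0, 1639, 1228, 1414 and 1186 in Tert+/+ young and 1293, 1471, 1032, 1033 and 1258 in G3 Tert-/- young libraries. It was 1071, 902, 845, 1129.5 and 926 in Tert+/+ old and 725, 894, 817, 801 and 806 in G3 Tert-/- old libraries. Within each genotype every old library lay below every young one. Acsm5, a further member of the synthetase family, was 208 to 283 in Tert+/+ young, 209 to 282 in G3 Tert-/- young, 174 to 250.4 in Tert+/+ old and 169 to 245 in G3 Tert-/- old libraries. All 4 groups of Acsm5 overlapped.

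Glyat, the enzyme that joins benzoyl-CoA and glycine, was 3408, 4549, 4199, 4608 and 5063 in Tert+/+ young and 4842, 4504, 3279.7, 5573 and 4453 in G3 Tert-/- young libraries. It was 4532, 4024, 3751, 5219.7 and 3906 in Tert+/+ old and 2916, 3585, 4006, 3280.3 and 4079 in G3 Tert-/- old libraries, and all groups overlapped. Keg1, a relative of Glyat known from the kidney, was 8314, 6975, 9213, 10456 and 9577 in Tert+/+ young and 7433, 11775, 8063, 8368 and 8536 in G3 Tert-/- young libraries. It was 8024, 5589, 5792, 4417 and 6413 in Tert+/+ old and 7349.8, 3765, 4605, 4951 and 4927 in G3 Tert-/- old libraries. The young and old groups of Keg1 overlapped in Tert+/+ and not in G3 Tert-/- mice.

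**Figure D1:**
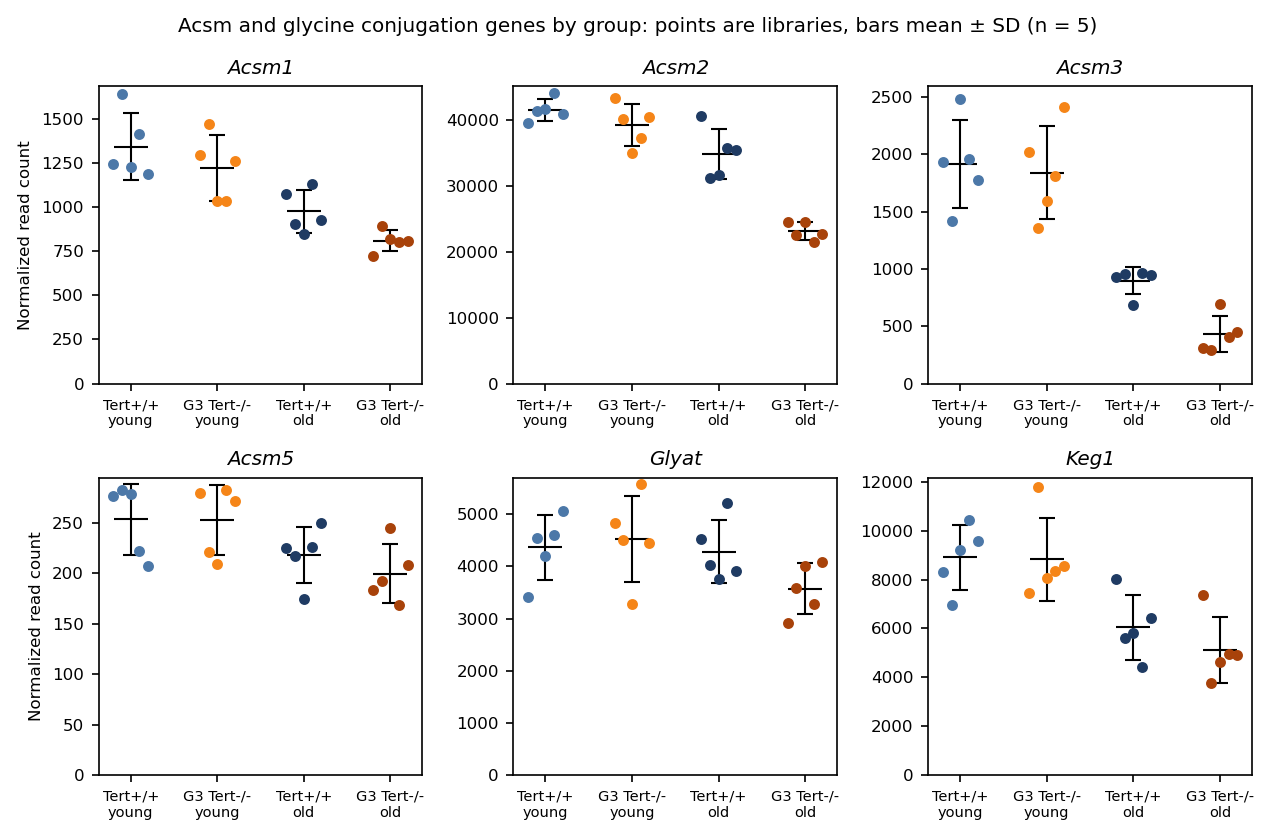
Normalized read counts (vertical axes, from 0) of the 6 genes by group (horizontal axes). Points are libraries and bars are mean ± SD (n = 5). For Acsm2 the G3 Tert-/- old libraries sit between 21464 and 24483, below all others, and for Acsm3 every old library lies below every young one.

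The order of the group means was the same for 5 of the 6 genes, with Tert+/+ young highest, then G3 Tert-/- young, Tert+/+ old and G3 Tert-/- old. For Glyat the young groups were exchanged (4530.3 ± 829.9 in G3 Tert-/- and 4365 ± 617 in Tert+/+). Neighbours in this order overlapped except Tert+/+ old and G3 Tert-/- old for Acsm2, and G3 Tert-/- young and Tert+/+ old for Acsm3. The young means were close for Acsm5 (253.7 in Tert+/+ and 252.9 in G3 Tert-/-) and Keg1 (8907 and 8835). How many of all tested genes share the order was not counted. It also includes old values known when the genes were listed, so nothing is read from it. Together the 6 genes took 0.7018% to 0.7328% of all counts in Tert+/+ young, 0.6566% to 0.7326% in G3 Tert-/- young, 0.5399% to 0.6691% in Tert+/+ old and 0.4026% to 0.4751% in G3 Tert-/- old libraries. Most of this share was Acsm2, whose low values were known when the genes were listed. Its mean was 41431 in Tert+/+ young and 23105 in G3 Tert-/- old libraries. Keg1, the next highest, had means of 8907 and 5119. The share therefore mainly follows Acsm2 and not the 6 genes alike.

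At 7 weeks none of the 6 genes differed between genotypes past the threshold of an adjusted p under 0.05. limma called 0 of 6, against 0% of the 14630 genes tested, 0 of the 6 had an unadjusted p under 0.05, and edgeR and DESeq2 also called 0 of 6. The groups of all 6 genes overlapped, while for 1.40% of tested genes, counted in both directions, the groups did not overlap. Over all genes, 1559 had an unadjusted p under 0.05, edgeR called 0 and DESeq2 13. The log2 fold change of Acsm3 (G3 Tert-/- minus Tert+/+) was -0.06, with a 95% confidence interval of -0.46 to 0.34 (limma adjusted p = 0.917). For Acsm2 it was -0.08 (-0.31 to 0.14, limma adjusted p = 0.790) and for Acsm1 -0.14 (-0.38 to 0.10, limma adjusted p = 0.631). Acsm5 was at -0.004 (-0.28 to 0.27), Glyat at 0.04 (-0.24 to 0.33) and Keg1 at -0.02 (-0.37 to 0.33), with limma adjusted p of 0.995, 0.915 and 0.978. A p that misses the threshold does not show equal levels. Without both libraries that stood apart, Glyat was at -0.04 and Acsm5 at 0.03.

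At 47 weeks all 6 genes had lower means in G3 Tert-/- kidneys. Acsm3 was 2.17-fold lower, a log2 fold change of -1.12 (SE 0.19, 95% confidence interval -1.52 to -0.71). Acsm2 was lower by a log2 fold change of -0.59 (SE 0.11, -0.82 to -0.36). Acsm1 was at -0.26 (SE 0.12), Glyat at -0.26 (SE 0.14), Keg1 at -0.25 (SE 0.17) and Acsm5 at -0.13 (SE 0.13). Acsm2 and Acsm3, 2 of 6, were among the 0.0820% of tested genes called lower, and nothing is read from that count because this difference was known when the genes were listed. Both calls ended (0 of 6) when Tert+/+ old replicate 1 or 5, or G3 Tert-/- old replicate 1, 2 or 4, was left out, and 1 of 6 was called without Tert+/+ old replicate 4 or G3 Tert-/- old replicate 5. Over the 29 alternative settings, log2 fold changes ran from -0.63 to -0.53 for Acsm2 and from -1.30 to -0.996 for Acsm3. With both libraries that stood apart left out, the log2 fold changes were -1.09 for Acsm3 and -0.58 for Acsm2. They were then -0.36 for Keg1, -0.21 for Acsm1, -0.19 for Glyat and -0.12 for Acsm5. For Acsm2 the groups did not overlap, as for 1.44% of tested genes in the lower direction.

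With age in Tert+/+ kidneys, Acsm3 was 2.12-fold lower (log2 fold change -1.08, SE 0.19), Keg1 was at -0.57 (SE 0.17) and Acsm1 at -0.46 (SE 0.12). Acsm2 was at -0.25 (SE 0.11), Acsm5 at -0.21 (SE 0.13) and Glyat at -0.02 (SE 0.14). Acsm3 was the 1 called gene of the 6, where 0.246% of tested genes were called lower. Young and old libraries did not overlap for Acsm1 and Acsm3, as for 1.25% of tested genes in the lower direction. Leaving out Tert+/+ old replicate 4, the library with more hepatocyte transcripts, raised the count to 2 by adding Acsm1, which was at -0.54 without both libraries that stood apart. Without them Glyat was at -0.18, Keg1 at -0.49, Acsm3 at -1.10, Acsm2 at -0.28 and Acsm5 at -0.19.

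With age in G3 Tert-/- kidneys the log2 fold changes of all 6 genes were farther from 0 than in Tert+/+ kidneys. Acsm3 was 4.39-fold lower, at -2.14 (SE 0.19, 95% confidence interval -2.54 to -1.73). Keg1 was 1.75-fold lower at -0.80 (SE 0.17), Acsm2 at -0.76 (SE 0.11) and Acsm1 1.49-fold lower at -0.58 (SE 0.12). These 4 were called, where 1.31% of tested genes were called lower, and their young and old libraries did not overlap, as for 2.66% of tested genes in the lower direction. Acsm5 was at -0.34 (SE 0.13) and Glyat at -0.33 (SE 0.14). Both age comparisons share old libraries with the 47-week comparison, in which the difference was known, so nothing is read from the numbers of the 6 genes called or not overlapping with age in either genotype.

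**Figure D2:**
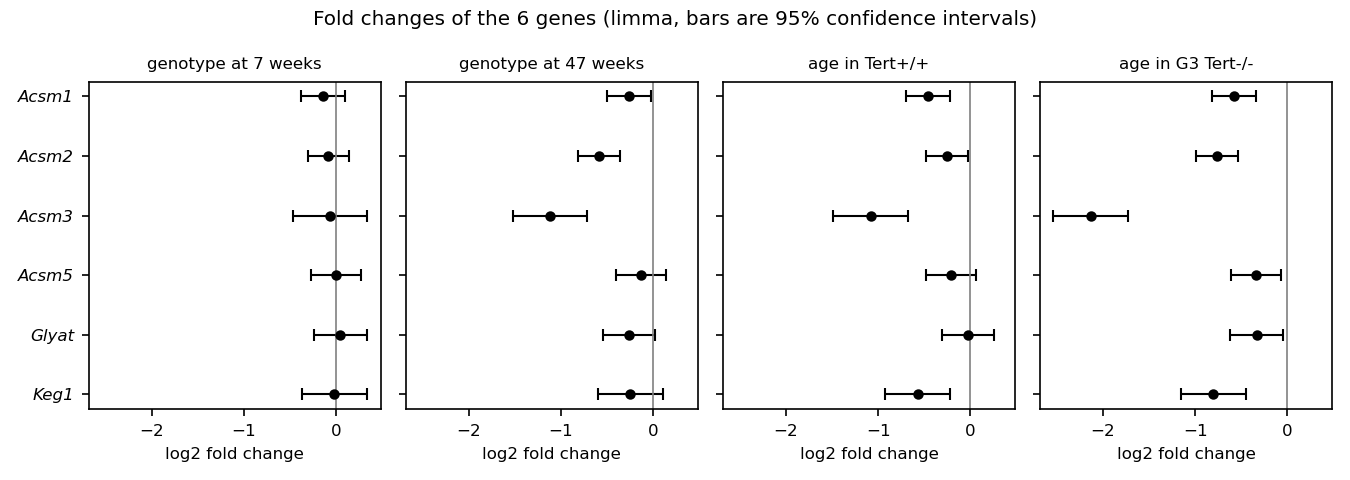
Log2 fold changes of the 6 genes (horizontal axes) in the 4 comparisons (panels), with bars for 95% confidence intervals of the limma fit. At 7 weeks all intervals include 0, and with age in G3 Tert-/- kidneys Acsm3 lies at -2.14.

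The change in genotype effect from 7 to 47 weeks, which equals the age effect in G3 Tert-/- less that in Tert+/+ kidneys, was -1.05 for Acsm3 (SE 0.27) and -0.51 for Acsm2 (SE 0.16) on the log2 scale. It was -0.31 for Glyat (SE 0.20), -0.23 for Keg1 (SE 0.24), -0.13 for Acsm5 (SE 0.19) and -0.12 for Acsm1 (SE 0.16). Without both libraries that stood apart it was -1.03 for Acsm3, -0.48 for Acsm2 and -0.32 for Keg1. It was then -0.15 for Glyat, -0.15 for Acsm5 and -0.04 for Acsm1. None of the 6 was called by limma, where 0.00684% of tested genes were called and 910 had an unadjusted p under 0.05. edgeR also called 0 of the 6, and DESeq2 called Acsm2. This difference contains the 47-week comparison, so nothing is read from these calls. The 1 gene called by limma was Slco1a1 (-2.09, limma adjusted p = 0.0199), which did not pass without both libraries that stood apart (limma adjusted p = 0.0628).

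Within groups, the genes did not vary together past the threshold. After group means were removed, Pearson's r over 20 libraries ran from -0.299 to 0.591 over the 15 pairs, with a median of 0.304, and 10 pairs were positive. The highest was between Acsm3 and Acsm5 (r = 0.591, permutation p = 0.0125, adjusted over the pairs 0.188, Spearman's rho 0.535 with permutation p = 0.0247, adjusted 0.208). Without the 2 libraries farthest from the median it was 0.518. Acsm1 and Acsm2, which lie 6.3 kb apart, had r = 0.523 (permutation p = 0.037, adjusted 0.277, rho 0.555 with permutation p = 0.0278, adjusted 0.208) and r = 0.616 without the 2 farthest libraries. Glyat and Keg1 had r = -0.203 (permutation p = 0.414, adjusted 0.517, rho -0.171 with permutation p = 0.497, adjusted 0.574) and -0.385 without the 2 farthest. 0 of the 15 pairs passed with either measure.

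The genes around the 6 were also measured. Of 18 other genes within 500 kb of the synthetases, 15 were tested, and 0 passed in either genotype comparison with limma, edgeR or DESeq2 (3 had an unadjusted p under 0.05 at 7 weeks and 0 at 47 weeks). Gm45792, which lies inside Acsm1 on the opposite strand, rose with age in Tert+/+ kidneys from 1315 ± 322 to 1955 ± 281 (log2 fold change 0.59, limma adjusted p = 0.0417). In G3 Tert-/- kidneys it rose from 1395 ± 194 to 2122.5 ± 179 (0.61, limma adjusted p = 0.0143). Gm19950, which spans Gm45792 on the same strand and also overlaps Acsm1, did not pass with age. Its log2 fold changes were 0.19 in Tert+/+ and 0.18 in G3 Tert-/- kidneys (limma adjusted p = 0.508 and 0.394). Of the 15, limma called 1 with age in Tert+/+ and 3 in G3 Tert-/- kidneys, edgeR 0 and 3, and DESeq2 1 and 3. Over all 14630 genes tested, limma called 0.649% and 2.24%, edgeR called 101 and 338 and DESeq2 211 and 530. Acsm1 means were lower with age in both genotypes, and a relation to the genes on the opposite strand was not tested. The protocol gives sense-strand libraries and names the stranded setting of the counter.

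Pdilt, a testis-expressed member of the protein disulfide isomerase family that overlaps Acsm5 on the minus strand, rose with age in G3 Tert-/- kidneys from 11.9 ± 4.51 to 27.4 ± 4.58 (1.20, limma adjusted p = 0.0322). Gm19963, on the minus strand between Acsm1 and Acsm3, fell from 16.7 ± 10.8 to 3.92 ± 2.44 (-1.94, limma adjusted p = 0.0407). Both had counts near the filter on low values. Around Glyat and Keg1, 8 of 14 genes were tested, and 1 passed. It was Gm4952, a glycine N-acyltransferase-like gene, which fell with age in G3 Tert-/- kidneys from 38.3 ± 10.4 to 17.3 ± 5.08 (-1.10, limma adjusted p = 0.0495). Gm4952 also had counts near the filter on low values.

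**Figure D3:**
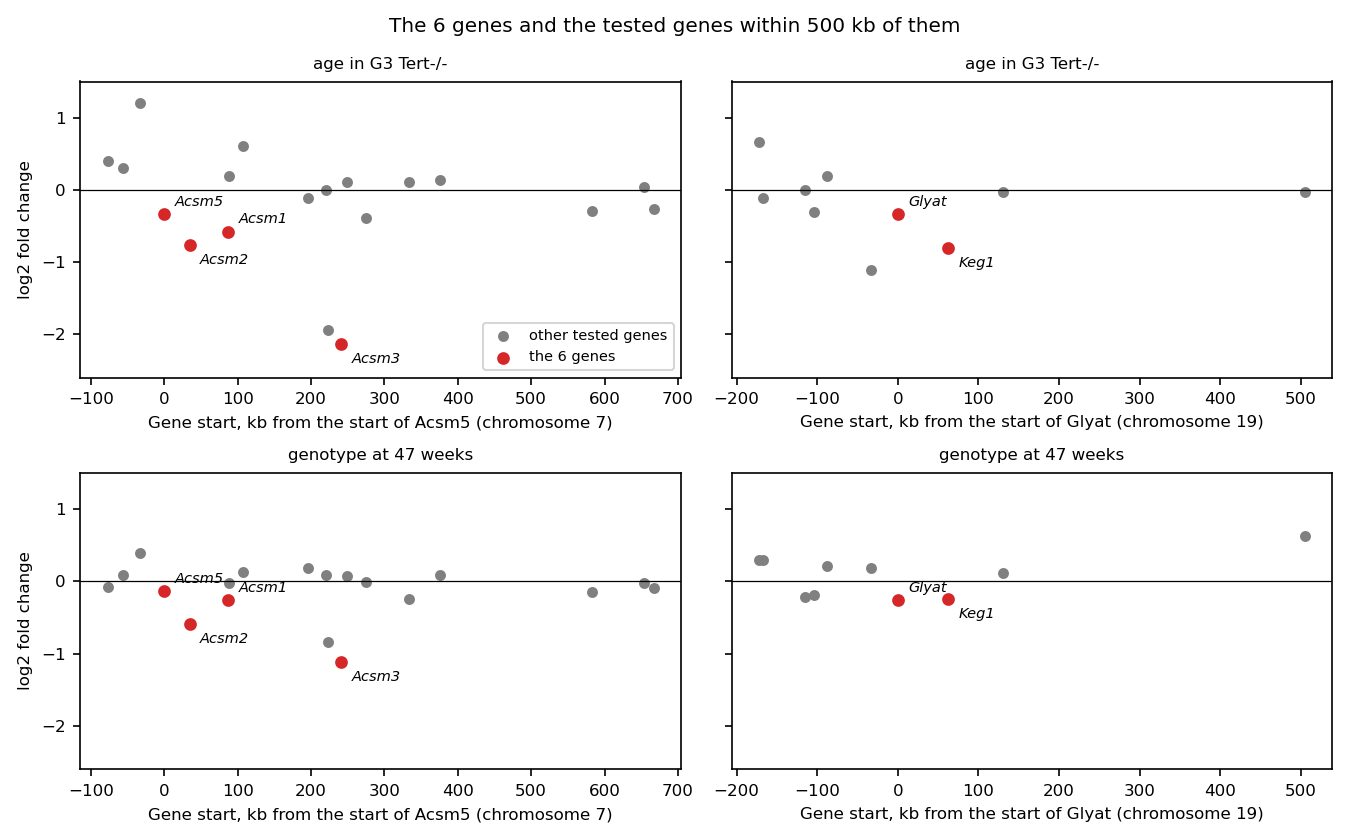
Log2 fold changes (vertical axes) of the 6 genes (red) and the other tested genes within 500 kb (grey) against gene start in kb from the start of Acsm5 or Glyat (horizontal axes). The upper panels show age in G3 Tert-/- kidneys and the lower panels genotype at 47 weeks. Acsm3 at -2.14 and Gm19963 at -1.94 are the lowest points of the upper left panel.

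The genes whose levels followed each of the 6 most closely over the 20 libraries were found among 12119 genes by Pearson's r of log2 values, as a description. Libraries of a group share their age and genotype, so r also reflects the group differences. For Acsm3 they were Slc22a7, an organic anion transporter of the proximal tubule (r = 0.940), Hsd17b11, a steroid dehydrogenase of lipid droplets (0.937), and Slco1a1, an androgen-dependent organic anion transporter (0.933). Their group-centred r was 0.666, 0.580 and 0.803. For Acsm2 they were Gm48281 (0.947), Slco1a1 (0.934) and Hsd17b11 (0.920), with a group-centred r of 0.652, 0.387 and 0.497. Slco1a1 was 1763.7 ± 514 and 1723 ± 377 in Tert+/+ and G3 Tert-/- young and 1256 ± 244 and 304 ± 118 in Tert+/+ and G3 Tert-/- old kidneys.

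**Figure D4:**
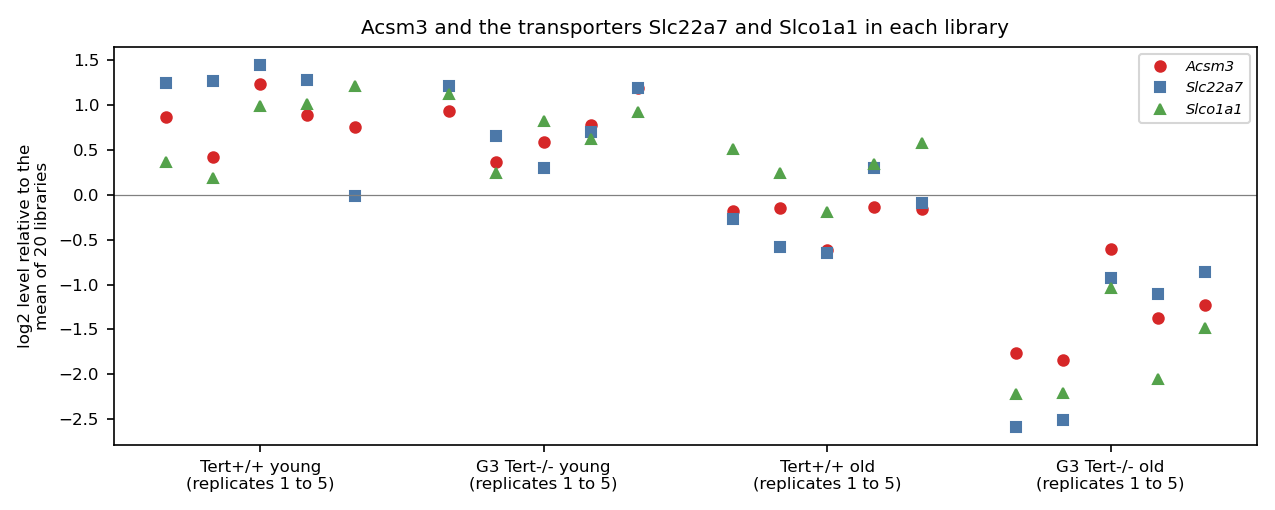
Log2 level relative to the mean of 20 libraries (vertical axis) of Acsm3, Slc22a7 and Slco1a1 in each library (horizontal axis, by group and replicate). Their r with Acsm3 was 0.940 and 0.933, and G3 Tert-/- old libraries hold the lowest values.

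For Acsm1 the closest were Pdk3, a kinase that restrains pyruvate dehydrogenase (r = 0.902), Aldh4a1, an enzyme of proline breakdown (0.879), and the mitochondrial serine carrier Sfxn1 (0.862). For Acsm5 they were the transporter Slc22a19 (0.829), Mpv17l (0.800) and the aminoacylase Acy1 (0.794). For Glyat they were Ush1c (0.883), Haao, an enzyme of tryptophan breakdown (0.868), and Oaz2, an inhibitor of polyamine synthesis (0.853). For Keg1 they were the mitochondrial chaperonin Hspe1 (0.863), the respiratory chain subunit Uqcrb (0.860) and the ferritin subunit Fth1 (0.841). With group means removed, r with Acsm1 was 0.664 for Pdk3, 0.865 for Aldh4a1 and 0.629 for Sfxn1. With Acsm5 it was 0.735 for Slc22a19, 0.662 for Mpv17l and 0.866 for Acy1. It was 0.871, 0.913 and 0.872 for Ush1c, Haao and Oaz2 with Glyat, and 0.601, 0.690 and 0.601 for Hspe1, Uqcrb and Fth1 with Keg1.

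Further genes were taken from 14 lists, which cover related reactions and transport, sex-biased genes, nephron and hepatocyte markers, mitochondrially encoded transcripts and transcription regulators. The lists were chosen with earlier results of these data known. Calls, p-values and medians of listed genes are therefore a description, and nothing is read from the numbers called. At 7 weeks 0 genes of any list passed with limma, edgeR or DESeq2, and 0 to 4 per list had an unadjusted p under 0.05. At 47 weeks limma called 0.0957% of all genes tested in either direction, and 1 of 22 tested genes of coenzyme A synthesis and hydrolysis, Nudt19, a peroxisomal hydrolase of coenzyme A. It fell from 3531 ± 242 in Tert+/+ to 2111 ± 283 in G3 Tert-/- kidneys (log2 fold change -0.75, limma adjusted p = 0.0125). That list had a median of -0.16, against 0.01 over all genes tested. limma called 2 of 14 androgen-responsive and male-biased genes lower, Slco1a1 (-2.10, limma adjusted p = 5.73e-05) and Nudt19, which both lists hold, with a median of -0.35 and 13 of 14 negative. None of 14 other acyl-CoA synthetases (2 with an unadjusted p under 0.05), 22 genes of glycine supply and use (2) and 25 of fatty acid oxidation (3) passed with limma or with edgeR or DESeq2.

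With age in Tert+/+ kidneys 0.649% of all genes tested were called. Ehhadh, a peroxisomal oxidation enzyme, fell from 337 ± 116 to 178 ± 31.6 (-0.88, limma adjusted p = 0.0249), 1 of 25 in its list. The urate and organic anion exporter Abcc4 rose from 148 ± 22.9 to 266 ± 24.9 (0.85, limma adjusted p = 0.00232), 1 of 11 transport genes. Of 3 female-biased genes, the prolactin receptor Prlr (log2 fold change 1.22) and the amino acid transporter Slc7a12 (3.25) rose, and the fatty acid hydroxylase Cyp4a14 (-2.25) fell, the last with a limma adjusted p of 0.0237, and 0.0749 without both libraries that stood apart. Of 14 androgen-responsive and male-biased genes, the fatty acid hydroxylase Cyp4a12a rose (1.80, limma adjusted p = 0.0467), and it did not pass without both libraries that stood apart (limma adjusted p = 0.169).

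With age in G3 Tert-/- kidneys 2.24% of all genes tested were called. 7 of 25 fatty acid oxidation genes fell and 0 rose, with a median of -0.29 (0.0031 over all genes). Cpt2, which returns acyl groups to coenzyme A inside mitochondria, fell from 557 ± 53.7 to 388 ± 38.1 (-0.52, limma adjusted p = 0.00381), and Eci2 (-0.57) and Acadl (-0.47) fell with limma adjusted p of 0.0143 and 0.0161. 4 of 22 genes of coenzyme A synthesis and hydrolysis fell (median -0.35). Log2 fold changes were -1.01 for Nudt19 and -0.69, -0.54 and -0.66 for the thioesterases Acot12, Acot13 and Acot1.

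In the glycine list, the apical transporters of neutral amino acids moved in opposite directions. Slc6a19 fell from 894 ± 160.4 to 482 ± 175 (-0.97, limma adjusted p = 0.0149), and Slc6a18, which carries glycine, rose from 1359 ± 272 to 2200.1 ± 414 (0.70, limma adjusted p = 0.0243), 2 of 22. Among 11 organic anion transporters, Slc22a7 fell from 400.4 ± 105 to 82.5 ± 42.2 (-2.41, limma adjusted p = 8.93e-05), and Slc22a6, which takes up hippurate from blood, fell from 5501 ± 559.7 to 3408 ± 189 (-0.69, limma adjusted p = 0.0399). Abcc4 rose from 163 ± 33.8 to 424 ± 73.7 (1.38, limma adjusted p = 2.20e-06). None of 14 other acyl-CoA synthetases passed (limma, edgeR and DESeq2 0), with 3 at an unadjusted p under 0.05, 12 negative and a median of -0.17.

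4 of 14 androgen-responsive and male-biased genes fell with age in G3 Tert-/- kidneys, with log2 fold changes of -2.55 for Slco1a1, -1.06 for the polyamine enzyme Odc1, -1.01 for Nudt19 and -0.81 for the lysosomal enzyme Gusb. Of the 3 tested female-biased genes, 2 rose with age in these kidneys and 1 was negative (median 2.67). In the genotype comparison at 47 weeks 3 of 3 were positive (median 1.25). There limma called 0 of them, and edgeR and DESeq2 called 1 each. Of 17 proximal tubule markers, 3 fell (Slc5a2, Slc22a6 and Slc22a7) and 1 rose (Slc13a1), with a median of -0.07. The summed marker level was 253197 to 392198 in G3 Tert-/- young and 218305 to 302555 in G3 Tert-/- old libraries. Most of the young sum was Kap, which is also on the androgen-responsive list and was 190473 ± 38317 and 137119 ± 23768 in these groups (log2 fold change -0.47, limma adjusted p = 0.273). The other 16 markers summed to 111266 to 147734 and 111574 to 133316, ranges that overlapped. The part of either sum in the lower levels of the 6 genes was not tested. Of 10 tested hepatocyte markers, Apoh and Serpina1a rose, with 6 positive and 4 negative. Means of Apoh (40.7 ± 12.6 and 85.0 ± 35.9) and Serpina1a (118 ± 86.4 and 226 ± 68.2) were also higher in old than in young Tert+/+ libraries. There limma called 0 of the 10, and 2 without both libraries that stood apart. Of the 14 in the table, 2, Mup3 and Mup20, were at 0 in all G3 Tert-/- old libraries. In G3 Tert-/- young libraries their means were already 0.55 and 0.37. None of the 15 transcription regulators of tubule metabolism passed in the 4 comparisons with limma, edgeR or DESeq2 (1 to 5 had an unadjusted p under 0.05).

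**Figure D5:**
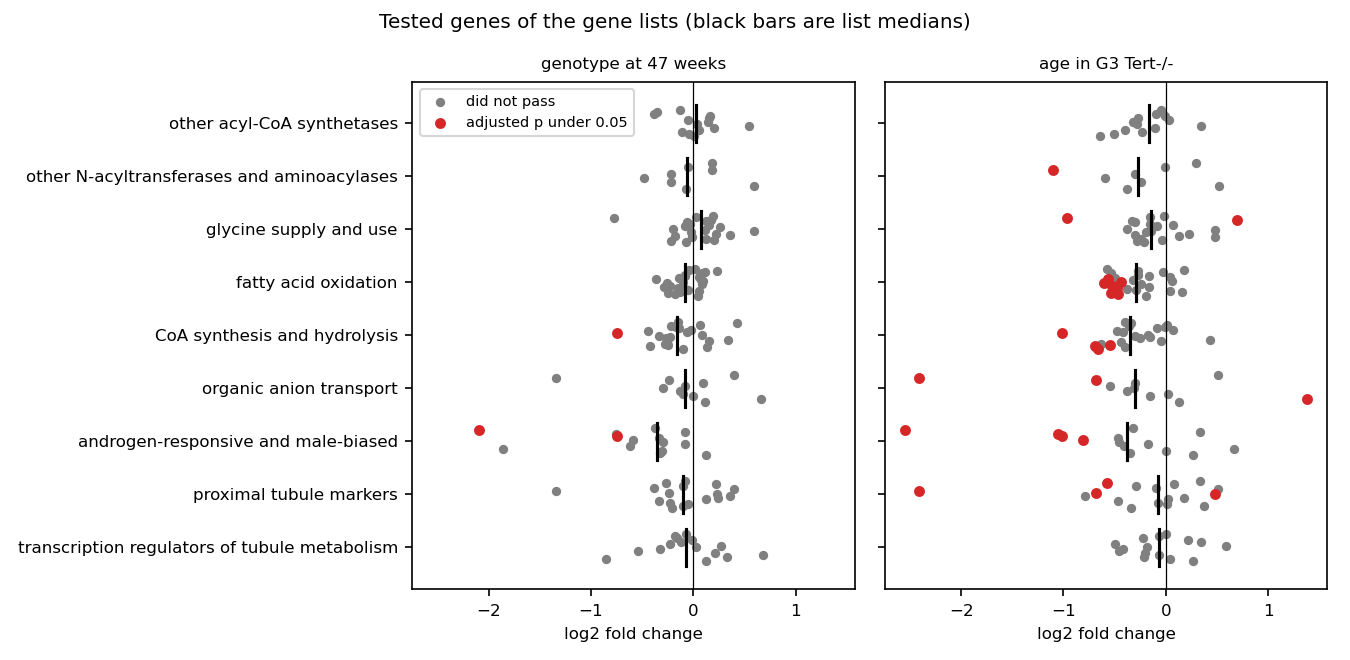
Log2 fold changes (horizontal axes) of tested genes in 9 lists (rows) for genotype at 47 weeks and age in G3 Tert-/- kidneys. Red points had an adjusted p under 0.05 and black bars are list medians, which for fatty acid oxidation with age in G3 Tert-/- kidneys was -0.29.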

How the data were processed

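The authors deposited 1 table of signal values, read as normalized read counts: in every library the values were whole multiples of 1 step (0.8304 to 1.1261, relative tolerance 1e-06), so whole reads were recovered by division. Per the labels' protocols, libraries came from 300 ng of RNA with a sense-strand 3′ kit. Per the submitters' processing notes, HTSeq 0.6.1, TopHat2 2.0.10 and DESeq2 were among the tools and GRCm38 was the build. The role of each tool is not described here.

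Genes with 10 or more normalized counts in at least 5 libraries (14630) were fitted as log2(normalized count + 1) in limma 3.58.1 (R 4.3.3, trended variance, 1 model of 4 group means). Tests were two-sided, p-values were adjusted by Benjamini-Hochberg across the 14630 genes, and the threshold was 0.05. Fold changes are on that log2 scale and understate changes of low genes. edgeR 4.0.16 and DESeq2 1.42.0 were run on recovered reads as alternatives. The fit was tested on simulated data. Pair correlations used 100000 permutations of libraries within groups. The 6 genes and the 14 lists were chosen with earlier results of these data known. Named genes were the 6 and up to 4 passing genes per list and comparison (higher group mean 20 or more). Passing neighbours within 500 kb were also named, with, for each of the 6, the 3 genes with the highest r. So were listed hepatocyte or proximal tubule markers that moved with a member or were at 0 throughout a group. 10 of 207 list entries, Acsm4 and Acsm6 among them, were not analysed here. Some results for listed genes are not reported here.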

Additional observations from a re-analysis of the deposited data

Results flagged for a closer look

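In 24 sets of 5 libraries (6 genes by 4 groups), the library farthest from the rest was compared with the spread of its group, a check that chance fails in about 1 in 20 sets. For Acsm3, Tert+/+ old replicate 3 held 686.4461 normalized counts while the other 4 libraries of that group held 931.6 to 964.0, and the gap was 0.883 of the group's range. For Keg1, G3 Tert-/- young replicate 2 held 11775.1827 while the other 4 held 7433 to 8536, and the gap was 0.746 of the range.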

How the results depend on the processing

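Pseudocounts of 0.5 and 5, no filter, a minimum of 50, TMM scaling, edgeR, DESeq2, the 2 groups alone, each library left out and both libraries that stood apart left out were tried. At 47 weeks and with age in G3 Tert-/- kidneys each of the 6 genes kept its direction in all 29. With age in G3 Tert-/- kidneys 4 were called in all 29. At 47 weeks Acsm2 was called in 20 of 29 and Acsm3 in 23. The number called at 47 weeks was 1 with no filter, 0 with the 2 groups alone, and 0 to 2 with each library left out. With age in Tert+/+ kidneys it was 2 with DESeq2 or without both libraries that stood apart, and 1 to 2 with each library left out. For the difference between the genotype effects, DESeq2 called 1. At 7 weeks, signs around 0 changed: with each library left out, log2 fold changes ran from -0.168 to 0.0402 for Acsm3, -0.0726 to 0.0615 for Acsm5, -0.0412 to 0.156 for Glyat and -0.126 to 0.0441 for Keg1, and without both libraries that stood apart they were 0.03 for Acsm5 and -0.0412 for Glyat. The r of Acsm1 and Acsm3 was -0.096, and 0.246 without the 2 farthest libraries. The causes were not tested. Over all genes, limma, edgeR and DESeq2 called 14, 15 and 50 at 47 weeks, 95, 101 and 211 with age in Tert+/+, 327, 338 and 530 with age in G3 Tert-/- kidneys and 1, 1 and 8 for the difference between genotype effects. Without both libraries that stood apart, limma called 0 at 7 weeks and 15 at 47 weeks, 131 and 661 with age (Tert+/+ first), and 0 for the difference between genotype effects. No paired analysis was possible because replicate numbers follow the order of listing and pair no mice.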
